A study of Rattus norvegicus with 64 samples.

Results

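The oxidative phosphorylation genes described here are the nuclear genes for subunits of the respiratory chain and of ATP synthase, together with a few close paralogs. They were taken by gene symbol, as every symbol that starts with Nduf followed by a, b, c, s or v and a digit, with Uqcr, with Cox followed by a digit from 4 to 8, or with Atp5, and the symbols Sdha, Sdhb, Sdhc, Sdhd and Cyc1. This gave 81 of the 17260 genes in the count files, with 33 in complex I, 4 in complex II, 9 in complex III, 18 in complex IV and 17 in complex V. Ndufa4 and its paralog Ndufa4l2 were placed in complex IV, where the Ndufa4 protein is now known to sit. The rule used no measured value.

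RNA came from Long Evans rats aged P2, P9, P23 or P45, from the medial (MEC) and the lateral (LEC) entorhinal cortex. Each region was dissected into layer II (LII) and the layers below it, III to VI (LDeep), which gives 16 groups of region, layer and age. A group had 5 samples where the age was P2, 4 where it was P9 or P45, and 3 where it was P23, or 64 samples in all. The labels name no treatment, transgene or other genotype, and the RNA was total RNA sequenced after removal of ribosomal RNA. A group is bulk tissue, so that a lower level from fewer cells of a type and one from less RNA per cell cannot be told apart. The study counts its replicates as biological ones, while the labels tie no sample to an animal. If samples of 1 age that share a replicate number come from 1 animal, they are not independent between groups.

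Oxidative phosphorylation takes place in the inner membrane of mitochondria. Complexes I and II pass electrons from NADH and succinate to ubiquinone, complex III passes them on to cytochrome c, and complex IV (cytochrome c oxidase) passes them to oxygen, while complexes I, III and IV pump protons whose return drives ATP synthase, complex V. Most subunits are encoded in the nucleus and some in mitochondrial DNA. Neurons rely on this pathway for ion pumping and synaptic transmission, and the rat cortex becomes more oxidative in the weeks after birth.

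Of the 81 genes, 78 had enough counts to be tested among 12521 genes. The other 3 were Cox8b, the heart and muscle isoform of subunit 8, Cox8c, its testis isoform, and Cox6c-ps1, a pseudogene of Cox6c. Cox6c-ps1 had 0 counts in all 64 samples, and Cox8c at most 2. Cox8b was at 0 in all 20 samples at P2 and in 15 of 16 at P9, and reached a median of 4 counts at P23 and 3 at P45. The 13 subunits encoded in mitochondrial DNA and the isoforms Cox6b1, Cox7a1 and Cox7b2 were not found in the count files by symbol and were not analysed here. Cox6b2 could therefore not be set against Cox6b1.

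Read pairs counted on genes ranged from 3894334 to 11439143 per sample (median 7569157.5). Neuron markers summed to at least 1231 CPM in every sample, where CPM are counts scaled to a library size common to all samples. All 4 tested LII markers were higher in LII and 8 of 9 deep layer markers lower, the exception being Ntsr1 (LFC 0.58, LII over LDeep, where LFC is the log2 fold change). Against these labels, 3 of 64 libraries resembled a group of the other layer more than their own. The profiles of MEC LII P2 replicates 1 and 3 lay nearest to LEC LDeep P2 (r = 0.936 and 0.979 over genes, against 0.928 and 0.963 with their own group), and that of MEC LDeep P2 replicate 1 nearest to MEC LII P2 (0.984 against 0.961). Meningeal fibroblast markers, which mark the tissue above LII, summed to 171 and 193 CPM in the first pair and to 1411 CPM in the third library. Deep layer markers summed to 377 and 431 CPM in the first pair and to 527 CPM in the third library. The medians at P2 were 474 CPM in LII and 789 CPM in LDeep. LII markers summed to 756 and 1129 CPM in the first pair and to 911 CPM in the third library, with medians of 1131 CPM in LII and 461 CPM in LDeep. The layer of origin of these libraries was not tested. Another 2 libraries were low in short transcripts. The mean over 517 other genes under 700 bases was 2.89 log2 CPM in MEC LDeep P2 replicate 4 and 3.00 in LEC LDeep P45 replicate 4. Subunit genes are short, with a median exon length of 695.5 bases against 2183 over all tested genes. Apart from layer, 10 of 64 libraries lay nearest to a group of another age, LEC LDeep P45 replicate 4 among them. Counts over members between younger and older ages, by layer, in single tissues and at single ages are given with and without the 5 libraries. For the steps from 1 age to the next, not every count is given without them.

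The 81 genes together took more of each library at later ages. Their share of all counts was 0.586 to 1.181% at P2 (median 1.055%), 1.204 to 1.738% at P9 (1.427%), 1.355 to 2.003% at P23 (1.638%) and 0.904 to 1.865% at P45 (1.589%). The lowest share at P2 and the lowest at P45 were those of the 2 libraries low in short transcripts. Every library at P9 lay above every library at P2. The mean log2 CPM over the 70 members with a median of at least 100 counts was 6.70 ± 0.24 (SD, n = 20) at P2, 7.21 ± 0.20 (n = 16) at P9, 7.48 ± 0.17 (n = 12) at P23 and 7.38 ± 0.25 (n = 16) at P45.

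**Figure D1:**
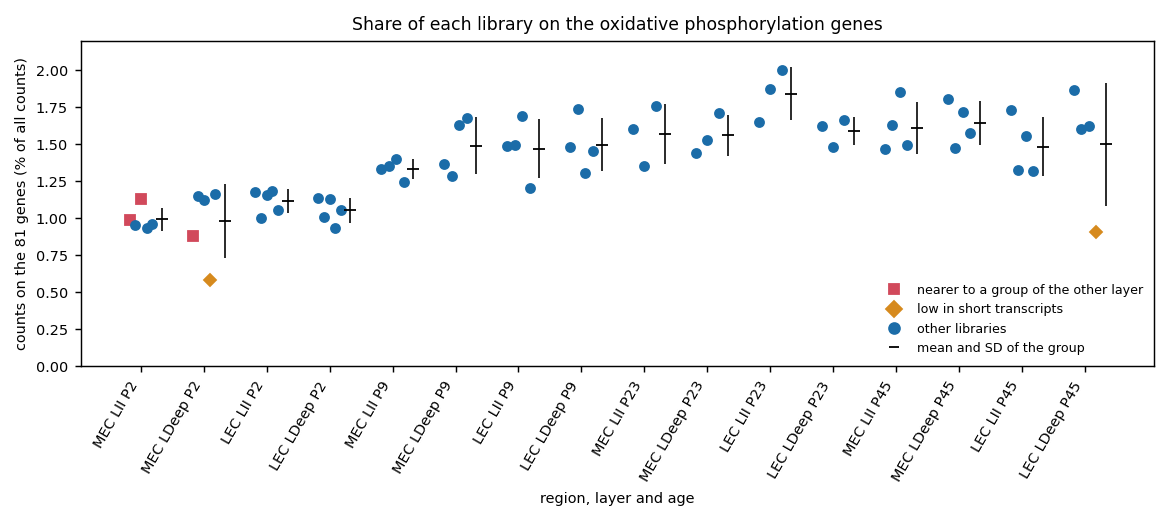
Share of each library's counts on the 81 oxidative phosphorylation genes (percent, vertical axis) in the 16 groups of region, layer and age. Points are samples, with squares for the 3 libraries nearer to a group of the other layer, diamonds for the 2 low in short transcripts, and bars for the mean and SD. At P2 the shares lie between 0.586 and 1.181%, below every share at P9.

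From the younger ages, P2/P9, to the older ones, P23/P45, 70 of the 78 tested members rose and 4 fell, at a Benjamini-Hochberg (BH) adjusted p below 0.05 in edgeR's quasi-likelihood test. Over all 12521 genes 41% rose and 40.6% fell. The median LFC was 0.44 for the members and 0.01 for all genes. Members of every complex rose. The largest changes in either direction were those of Cox6a2 (LFC 2.95 ± 0.22, SE) and Cox6b2 (-2.11 ± 0.16), which are isoforms of complex IV best known from muscle and testis. Without the 5 libraries that stand apart, 70 rose and 4 fell again, and with counts summed over the 4 samples of each age and replicate number 68 rose and 4 fell. No member was lower in every P45 than in every P2 sample, against 9.98% of all genes. Every P45 sample lay above every P2 sample for 10 members, against 9.54% of all genes. These were Atp5sl, Cox4i1, Cox6a2, Cox8a, Ndufa8, Ndufs1, Ndufs7, Ndufv1, Sdha and Uqcr11.

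**Figure D2:**
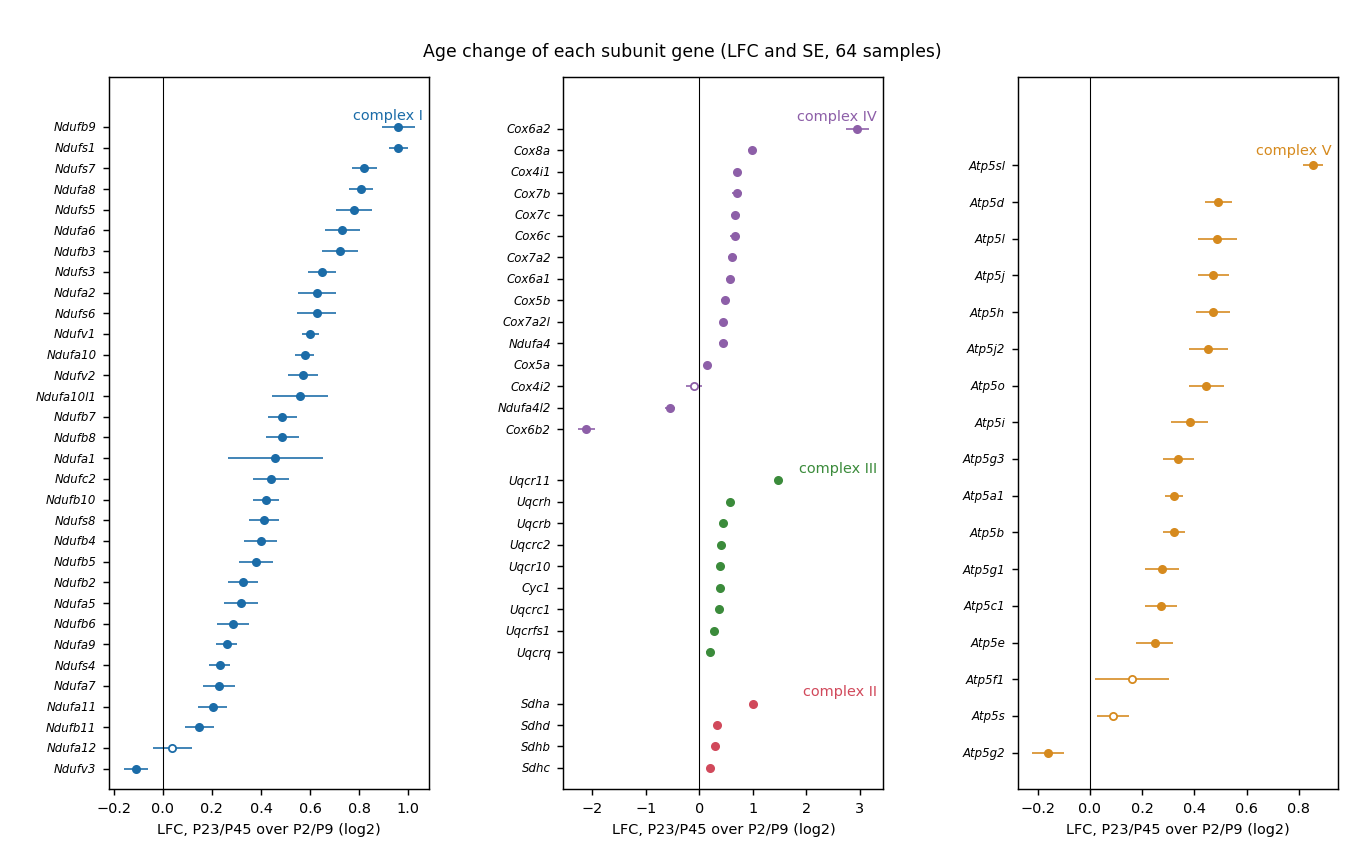
Change of the tested genes, 1 of them not shown, from the younger to the older ages (LFC of P23/P45 over P2/P9, log2, horizontal axis; bars are SE from the fit on 64 samples), grouped and coloured by complex, with a scale of its own in each panel. Filled points passed the test, and open points did not. Most points lie right of 0, with Cox6a2 at 2.95 and Cox6b2 at -2.11 at the ends.

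To show what lies upstream of the genes that the age result turns on, the 250 bases before the annotated start are printed for 8 of them, chosen after their values were seen. They are 3 genes with a large rise (Sdha, Ndufs1 and Cox8a), the isoforms at both ends of the range (Cox6a2 and Cox6b2), and the 3 genes for the same c subunit protein of ATP synthase (Atp5g1, Atp5g2 and Atp5g3). Sequences are from RefSeq on build GRCr8, read 5′ to 3′ on the strand of the gene, and capitals mark matches to any of 8 motifs searched on both strands. GRCr8 is not the build on which reads were counted.

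Sdha (GRCr8 chr1:30764303-30764552, plus strand): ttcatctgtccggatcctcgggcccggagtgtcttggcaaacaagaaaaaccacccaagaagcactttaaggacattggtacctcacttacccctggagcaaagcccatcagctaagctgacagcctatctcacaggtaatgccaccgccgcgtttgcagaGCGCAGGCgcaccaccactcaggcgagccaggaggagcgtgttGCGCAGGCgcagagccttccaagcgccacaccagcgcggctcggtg
Ndufs1 (GRCr8 chr9:72073606-72073855, minus strand): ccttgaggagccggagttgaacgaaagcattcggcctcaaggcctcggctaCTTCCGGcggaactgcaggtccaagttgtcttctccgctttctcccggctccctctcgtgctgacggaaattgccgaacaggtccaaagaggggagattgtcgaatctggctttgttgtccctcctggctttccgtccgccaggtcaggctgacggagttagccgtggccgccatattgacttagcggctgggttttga
Cox8a (GRCr8 chr1:213833624-213833873, minus strand): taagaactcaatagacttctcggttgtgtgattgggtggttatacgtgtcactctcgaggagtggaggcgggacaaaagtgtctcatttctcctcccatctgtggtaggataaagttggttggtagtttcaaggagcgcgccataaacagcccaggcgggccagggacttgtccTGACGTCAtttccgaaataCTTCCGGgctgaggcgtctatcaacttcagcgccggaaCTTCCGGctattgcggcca
Cox6a2 (GRCr8 chr1:192219717-192219966, minus strand): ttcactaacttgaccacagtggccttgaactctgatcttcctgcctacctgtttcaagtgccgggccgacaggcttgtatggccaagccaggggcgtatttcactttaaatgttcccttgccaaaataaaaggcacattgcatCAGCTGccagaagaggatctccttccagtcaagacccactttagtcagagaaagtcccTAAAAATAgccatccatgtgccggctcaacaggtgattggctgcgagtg
Cox6b2 (GRCr8 chr1:78122621-78122870, plus strand): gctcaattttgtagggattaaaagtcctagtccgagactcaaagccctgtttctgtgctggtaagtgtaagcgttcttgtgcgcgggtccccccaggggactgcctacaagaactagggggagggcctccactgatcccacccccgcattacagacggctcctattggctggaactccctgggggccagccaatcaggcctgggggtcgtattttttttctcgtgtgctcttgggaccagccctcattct
Atp5g1 (GRCr8 chr10:81523346-81523595, minus strand): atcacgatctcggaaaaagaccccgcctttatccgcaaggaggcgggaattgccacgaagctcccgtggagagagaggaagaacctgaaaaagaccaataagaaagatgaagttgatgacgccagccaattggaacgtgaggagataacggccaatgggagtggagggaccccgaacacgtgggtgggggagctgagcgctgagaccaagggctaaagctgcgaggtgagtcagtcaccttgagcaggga
Atp5g2 (GRCr8 chr7:135678219-135678468, minus strand): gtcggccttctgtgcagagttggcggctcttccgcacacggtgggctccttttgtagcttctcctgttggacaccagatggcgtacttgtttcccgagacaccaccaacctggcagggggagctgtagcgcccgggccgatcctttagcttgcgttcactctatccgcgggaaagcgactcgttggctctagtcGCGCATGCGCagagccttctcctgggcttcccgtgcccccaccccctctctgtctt
Atp5g3 (GRCr8 chr3:79220665-79220914, minus strand): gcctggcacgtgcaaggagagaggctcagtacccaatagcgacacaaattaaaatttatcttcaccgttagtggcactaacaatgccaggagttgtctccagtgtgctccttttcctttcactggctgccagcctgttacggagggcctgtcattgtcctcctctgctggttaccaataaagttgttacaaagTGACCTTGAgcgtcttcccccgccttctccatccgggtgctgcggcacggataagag

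The motifs were those known for nuclear respiratory factor 1 (NRF1, GCGCANGC), GABP (CCGGAAG), YY1 (AAGATGGC), SP1 (GGGCGG), the estrogen-related receptors (ERR, TCAAGGTCA), CREB (TGACGTCA), MEF2 (TAAAAATA) and E-box factors of muscle (CAGCTG). The Sdha promoter held 2 NRF1 motifs. That of Ndufs1 held 1 GABP motif, and that of Cox8a 2 GABP motifs and 1 CREB motif. The Cox6a2 promoter held 1 MEF2 motif and 1 E-box. For the c subunit genes the letters differed, with 2 overlapping NRF1 matches on opposite strands for Atp5g2, 1 ERR motif for Atp5g3 and none for Atp5g1. The promoter of Cox6b2 held none of the 8.

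One promoter was found for 68 of the 81 members, 15 of them under another symbol. NRF1 motifs were in 29.4% of these and in 7.77% of all 33469 promoters of the same length, and GABP motifs in 26.5% and 7.27%. For SP1 the shares were 36.8% and 30.5%, for the E-box 13.2% and 12%, for CREB 4.41% and 1.59%, for YY1 2.94% and 1.63%, for MEF2 1.47% and 2.44%, and for ERR 1.47% and 0.388%. Cox6a2 was the single member with the MEF2 letters in this window, Atp5g3 the single one with those of ERR, and 17 of the 68 had none of the 8 motifs. A match describes the letters and is not evidence of binding.

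Complex I oxidizes NADH. Of its 33 tested members 31 rose with age and Ndufv3 fell, with a median LFC of 0.49. The core subunits named here rose. Ndufs1, the largest subunit, which holds several iron-sulphur clusters (Rn6 chr9:69919865-69953182, minus strand), was at 91.3 to 162 CPM at P2 (median 120 in 20 samples), 148 to 219 at P9 (193), 275 to 346 at P23 (287) and 237 to 354 at P45 (301). No sample at P23 or P45 reached as low as the highest sample at P9. Its LFC was 0.96 ± 0.04 (adjusted p 5.01e-29). Ndufs7, which holds the last cluster before ubiquinone, rose by 0.82 ± 0.05 and Ndufv1, the subunit that binds NADH, by 0.60 ± 0.03, both in LFC. Further core subunits, Ndufs3, Ndufs8 and Ndufv2, rose by 0.41 to 0.65.

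The complex I member with the highest LFC was the accessory subunit Ndufb9 (0.96 ± 0.07). Its level went from a median of 112 CPM at P2 to 172 at P9, 273 at P23 and 259 at P45, and at P45 it was also the highest of complex I per length, with a median of 406 CPM per kb of exon. The accessory subunit Ndufv3 had the lowest LFC (-0.11 ± 0.05, adjusted p 0.0387). The call was lost in MEC samples alone (adjusted p 0.195) and in LEC samples alone (0.0993), and also without P9 replicate 4 (0.0556) or P23 replicate 1 (0.0684). Its level was at medians of 73.8, 83.5, 79.6 and 69.3 CPM from P2 to P45, and its ranges at the 4 ages overlapped. Ndufa12 was the member of complex I that did not pass the test (LFC 0.04, adjusted p 0.651). Of the other accessory subunits, Ndufa8 (0.81), Ndufs5 (0.78), Ndufa6 (0.73) and Ndufb3 (0.72) lay nearest to Ndufb9, and Ndufb11 (0.15) had the smallest rise.

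Counts of a few members are uncertain. The gene models of Ndufa1 and Atp5f1 hold exon copies 706390 and 146221 bases apart, and their median counts over the 64 samples were 7.5 and 27.5. Read pairs that fit several places were not counted, and the effect on these values was not tested. Ndufa10l1, a gene of 1 exon similar to Ndufa10, and the processed copies that many subunit genes have in the genome could take or lose reads in the same way.

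Complex II, succinate dehydrogenase, also works in the citric acid cycle and has no subunit encoded in mitochondrial DNA. All 4 genes rose, but unequally. Sdha, the flavoprotein that oxidizes succinate (chr1:31545631-31570601, plus strand), was at 158 to 246 CPM at P2 (median 209), 242 to 326 at P9 (299), 433 to 536 at P23 (488) and 360 to 556 at P45 (514). Its older samples lay above all younger ones, with an LFC of 1.00 ± 0.04 (adjusted p 9.83e-32). The iron-sulphur subunit Sdhb rose by 0.29 ± 0.05, and the membrane anchors Sdhc and Sdhd by 0.21 ± 0.05 and 0.34 ± 0.05. Per kb of exon, the medians at P45 were 226 CPM for Sdha, 174 for Sdhb and 147 for Sdhc.

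Complex III passes electrons from ubiquinol to cytochrome c. All of its 9 genes rose, with a median LFC of 0.40. Among the subunits that carry electrons, cytochrome c1 (Cyc1) rose by 0.39 ± 0.05 and the Rieske iron-sulphur protein (Uqcrfs1) by 0.27 ± 0.04, and the scaffold subunit Uqcrc1 by 0.37 ± 0.04. Between them and the ends of the range lay Uqcr10, Uqcrc2, Uqcrb and Uqcrh, at 0.40 to 0.58. The small subunit gene Uqcr11 (chr7:12171185-12175837, plus strand) changed most. It was at 40.6 to 90.4 CPM at P2 (median 69.6), 111 to 192 at P9 (147), 212 to 418 at P23 (300.4) and 178 to 348 at P45 (251). The range at P9 lay wholly above that at P2, and the LFC from younger to older was 1.47 ± 0.06 (adjusted p 1.1e-28). The lowest in the complex was Uqcrq, another small subunit, with 0.21 ± 0.07 (adjusted p 0.00886), a call lost in the fit on MEC samples alone (adjusted p 0.0794) and on LEC samples alone (0.0507).

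Complex IV reduces oxygen, and several of its subunits have isoforms known from particular tissues. Of 15 tested members 12 rose and 2 fell, with a median LFC of 0.57. The widely expressed isoforms carried almost all of the counts. Cox4i1 took 98.1 to 99.8% of the subunit 4 transcripts (per length) in each sample at P2 and 99.3 to 99.7% at P45, and its level rose from a median of 309 CPM at P2 to 432 at P9, 597 at P23 and 566 at P45 (LFC 0.71 ± 0.06, adjusted p 4.46e-16). Cox4i2, the oxygen-responsive isoform, stayed at medians between 2.39 and 3.26 CPM, and its LFC of -0.09 ± 0.15 did not pass the test (adjusted p 0.557).

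Subunit 6a has a liver-type isoform, Cox6a1, and a heart and muscle isoform, Cox6a2, which in cortex is known from parvalbumin-expressing interneurons. Cox6a1 rose from a median of 258 CPM at P2 to 437 at P45 (LFC 0.57 ± 0.07). Cox6a2 (chr1:199624037-199624783, minus strand) was at 0 to 0.674 CPM at P2 (median 0.152), with 0 counts in 5 of 20 samples. It was at 0.203 to 3.2 CPM at P9 (median 1.73), 1.93 to 11.4 at P23 (4.1) and 0.756 to 18.5 at P45 (3.84). Every sample at P45 lay above every sample at P2, while P23 and P45 overlapped. Its LFC was 2.95 ± 0.22 (adjusted p 4.16e-18), and with a median of 1 count at P2 this value depends on the prior count of the fit. Even at its highest, in a sample at P45, Cox6a2 made up 3.36% of the subunit 6a transcripts.

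Pvalb, the parvalbumin gene, rose with an LFC of 7.24 over the same ages. Of 11 striated muscle markers, Ckm was at 0 in 63 samples, Mb in 60, Myl7 in 59 and Actc1 in 56, and of the 6 that were tested 3 rose and 2 fell. The summed muscle markers were at 18.7 to 37 CPM at P2 and at 18.2 to 50.4 CPM at P45. The part of either cell type in the Cox6a2 values was not tested.

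Cox6b2, the testis isoform of subunit 6b (chr1:72661211-72662436, plus strand), fell with age. It was at 2.5 to 19.8 CPM at P2 (median 7.72), 4.06 to 17.7 at P9 (9.04), 1.15 to 3.81 at P23 (2.14) and 0.499 to 4.27 at P45 (1.96). All samples at P23 lay below all samples at P9. The LFC was -2.11 ± 0.16 (adjusted p 6.26e-18). Ndufa4l2, a paralog of Ndufa4 known from pericytes and from low oxygen, also fell (-0.55 ± 0.10, adjusted p 1.14e-06) from medians of 4.32 CPM at P2 and 5.72 at P9 to 3.32 at P23 and 3.86 at P45, while Ndufa4 rose by 0.44 ± 0.09. Ndufa4l2 made up at most 3.71% of the transcripts of this pair in any sample.

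Among the other subunits of complex IV, Cox8a, the ubiquitous form of subunit 8, rose from a median of 80.5 CPM at P2 to 166 at P9, 245 at P23 and 216 at P45 (LFC 0.98 ± 0.06). Cox7c (0.67), Cox6c (0.66) and Cox5b (0.48), which have no isoform among the members analysed, rose as well. Cox7b rose by 0.70 ± 0.10 and Cox7a2, the liver-type isoform of subunit 7a, by 0.62 ± 0.08. Cox7a2l, a relative of subunit 7a that helps join complexes III and IV, rose by 0.44 ± 0.06. Cox5a had the smallest LFC among those that passed, 0.15 ± 0.06 (adjusted p 0.0111), and did not pass in the fit on LEC samples alone (0.02, adjusted p 0.83).

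**Figure D3:**
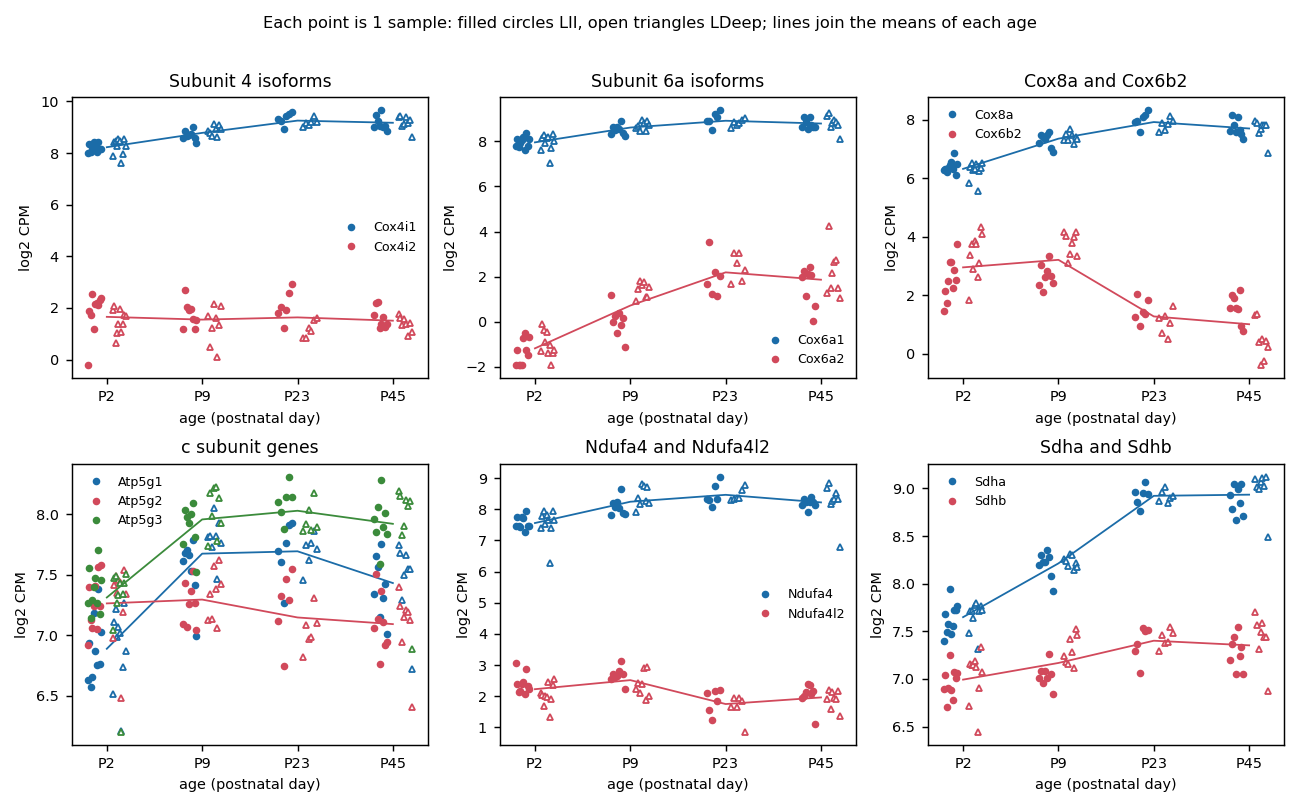
Levels of isoforms and paired subunits in each sample (log2 CPM, vertical axis) at P2, P9, P23 and P45, with filled circles for LII and open triangles for LDeep, and lines through the means of each age. Cox6a2 rises from a median of 0.152 CPM at P2 to 3.84 at P45, Cox6b2 falls from 7.72 to 1.96, and Sdha rises from 209 to 514.

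Complex V makes ATP. Of 17 members 14 rose and Atp5g2 fell, with a median LFC of 0.34, and Atp5s (0.09) and Atp5f1 (0.16) did not pass the test. The subunits of the catalytic head lay near the median of the group. Atp5b, the catalytic beta subunit, had a median of 1441 CPM in the P2 samples, 1922 at P9, 2203 at P23 and 2109 at P45, and had the highest level per length of all members at P45, 1199 CPM per kb. Its LFC was 0.32 ± 0.04, and that of the alpha subunit Atp5a1 0.32 ± 0.03. The largest LFC among the genes placed in complex V here was that of Atp5sl (0.85 ± 0.04). Its protein resembles the coupling factor encoded by Atp5s but is not a fixed subunit of ATP synthase, so its rise is not that of a subunit. The small subunits Atp5d, Atp5l, Atp5j, Atp5h, Atp5j2, Atp5o, Atp5i and Atp5e, which belong to the stalks and the membrane part, rose by 0.25 to 0.49.

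The c ring, which turns as protons pass, is made of 1 protein encoded by 3 genes whose precursors differ in the part that targets them to mitochondria. Their changes with age differed in sign. Atp5g1 rose by 0.28 ± 0.06 (adjusted p 0.000126) and Atp5g3 by 0.34 ± 0.06 (1.37e-06), whereas Atp5g2 fell by 0.16 on the log2 scale (SE 0.06, adjusted p 0.0131). In the fit on MEC samples alone the fall of Atp5g2 did not pass (-0.12, adjusted p 0.227). As a share of the 3 per length, Atp5g2 took 32.6 to 38.7% of the transcripts at P2 (median 35.9%) and 22.2 to 29.5% at P45 (24.7%), with no overlap. Atp5g3 went from a median of 33.1% to 40.5% and Atp5g1 from 30.3% to 35.4%. At P9 the share of Atp5g2 was 22.6 to 30.1% (median 25.4%), below every sample at P2.

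By age step, the number of members that rose was highest from P2 to P9. From P2 to P9, 73 of 78 members rose and 0 fell (DESeq2 72 and 0, unadjusted p below 0.05 for 74 and 0), against 31.6% and 31.8% of all genes, with a median LFC of 0.46. All 4 genes of complex II, all 9 of complex III, 32 of 33 of complex I, 13 of 15 of complex IV and 15 of 17 of complex V were among them. The largest were Cox6a2 (2.71 ± 0.37), Uqcr11 (1.07 ± 0.08) and Cox8a (1.03 ± 0.08). At this step Atp5g1 rose by 0.77 ± 0.09 and Atp5g3 by 0.64 ± 0.08, while Atp5g2 did not pass the test (LFC 0.02, adjusted p 0.807).

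From P9 to P23, 42 members rose and 2 fell, against 32.5% and 32.1% of all genes, with a median LFC of 0.23. Cox6a2 (1.69 ± 0.28), Uqcr11 (1.03 ± 0.09) and Atp5sl (0.74 ± 0.06) led the rise, and Cox6b2 (-2.06 ± 0.23) and Ndufa4l2 (-0.81 ± 0.15) fell. Sdha rose by 0.71 ± 0.05, more than at the first step (0.56 ± 0.05), a difference that was not tested. The number of members that rose at this step was less firm, with 19 in the fit on MEC samples alone, 37 on LEC samples alone, and 23 without P23 replicate 3. The rise of Cox6a2 in the MEC alone did not pass (0.83, adjusted p 0.0678).

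From P23 to P45 no member passed the test in edgeR or in DESeq2, and at an unadjusted p below 0.05 there were 2 higher and 7 lower. Of all genes 1.99% were higher and 1.86% lower. The median LFC of the members was -0.08. Without the 2 libraries low in short transcripts 1 member, Atp5s, was higher at P45 (LFC 0.27 ± 0.08, adjusted p 0.048).

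**Figure D4:**
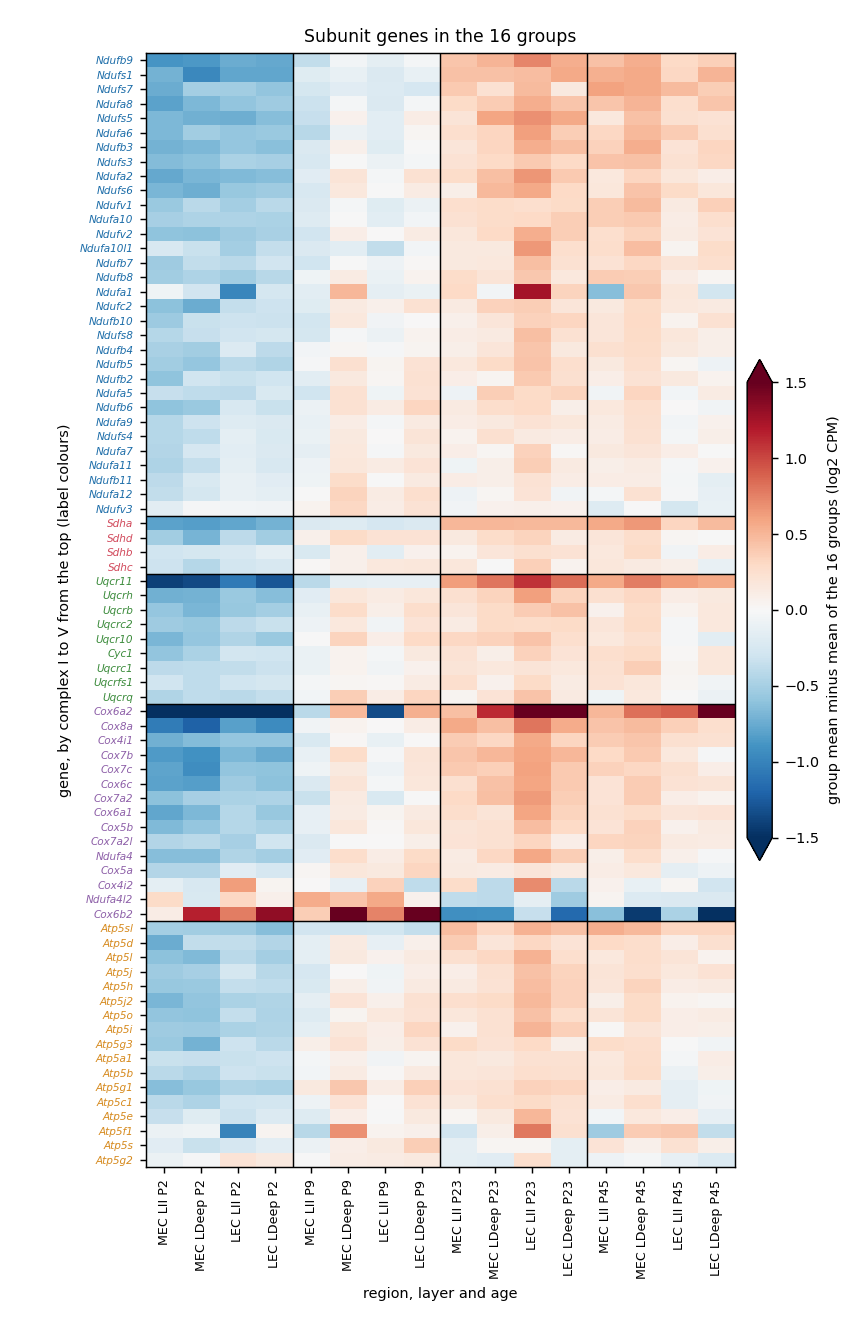
Group means of the tested genes, 1 of them not shown, in the 16 groups (columns, by age, then region and layer; rows by complex), as log2 CPM minus the mean of the 16 groups. Blue is below and red above that mean. Most rows are blue at P2 and red at P23 and P45, and Cox6b2 and Ndufa4l2 run the other way.

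The rise was present in each region and layer taken alone. In MEC LII 65 of 78 members rose (34.5% of all genes), in MEC LDeep 60 (32.2%), in LEC LII 63 (33.4%) and in LEC LDeep 45 (32.8%). The median LFC was 0.54, 0.43, 0.47 and 0.33 in that order. Sdha rose by 1.04, 1.08, 0.92 and 0.95, and Uqcr11 by 1.52, 1.51, 1.46 and 1.41. LEC LDeep holds 1 of the 2 libraries low in short transcripts, at P45, and MEC LDeep the other, at P2. Without the 5 libraries 67 members rose in MEC LII (34.5% of all genes), 58 in MEC LDeep (35.4%), 65 in LEC LII (33.9%) and 60 in LEC LDeep (35%).

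The age change itself was also compared between layers and between regions. Between layers 1 member differed, Cox6b2, whose age change was higher in LII than in LDeep, against 4.83% of all genes with a higher and 3.97% with a lower age change in LII. At an unadjusted p below 0.05 there were 5 higher and 0 lower. Between MEC and LEC no member passed in edgeR or DESeq2 (unadjusted 5 and 2), against 2.08% and 2.3% of all genes. The smallest adjusted p in that comparison was 0.142, for Atp5f1.

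For Cox6b2 the order of the layers turned between P9 and P45. At P2 it was at 2.5 to 13.2 CPM in LII (median 5.41, n = 10) and 3.28 to 19.8 in LDeep (11.6, n = 10), and at P9 at 4.06 to 9.77 in LII (5.96, n = 8) and 8.31 to 17.7 in LDeep (14.6, n = 8). At P23 it was at 1.67 to 3.81 CPM in LII (2.37, n = 6) and 1.15 to 2.82 in LDeep (1.95, n = 6), and at P45 at 1.43 to 4.27 in LII (2.68, n = 8) and 0.499 to 2.28 in LDeep (1.07, n = 8). LDeep was thus the higher layer at the younger ages and LII at P45, with ranges that overlapped at each age. The LFC of LII over LDeep was -0.88 ± 0.24 at P2, -1.12 ± 0.27 at P9, 0.41 ± 0.38 at P23 (adjusted p 0.474) and 1.17 ± 0.34 at P45 (adjusted p 0.0074). The age change was -1.15 in MEC LII and -1.28 in LEC LII, and -2.91 and -3.11 in LDeep of the MEC and LEC, so that it differed between layers by 1.79 ± 0.31 (adjusted p 4.72e-05). At P45 LDeep samples had 4 to 21 counts of this gene. Without the 5 libraries Cox6b2 was at 3.03 to 13.2 CPM in LII at P2 (median 5.41, n = 8) and 7.2 to 19.8 in LDeep (13.2, n = 8), and the LFC at P2 was -1.14 ± 0.22. Without the 3 libraries nearer to the other layer the difference in age change was 1.89 ± 0.29, and then Atp5d (0.28 ± 0.09) and Atp5f1 (0.74 ± 0.26) passed as well.

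With ages and regions weighted equally, 10 members were lower and 2 higher in LII than in LDeep, against 30.5% lower and 23.5% higher of all genes. The median LFC was -0.08 for the members and -0.05 for all genes. With total counts as library sizes 2 members were lower and 6 higher, and of all genes 15.3% and 29.1%. With voom and quantile normalization 7 were lower and 3 higher, and those 3 were Cox8a, Sdhc and Uqcrfs1. The shares of all genes in the voom fit are not given here, so its counts are not read against them. Cox6a2 was lower in LII by 0.92 on the log2 scale (SE 0.24, adjusted p 0.000969), and Ndufa5, an accessory subunit of complex I, by 0.27 (SE 0.07, adjusted p 0.000894). The other 8 that were lower were Ndufs5 (-0.18 ± 0.07), Ndufs4, Ndufv1, Ndufv3, Ndufb10, Sdhb, Uqcrb and Uqcrc2, with LFC between -0.11 and -0.18. The call for Ndufs5 was lost in 5 of 16 fits with a replicate number left out (LFC -0.21 to -0.15). Cox4i2 was higher in LII (0.53 ± 0.15, adjusted p 0.00239), and so was Ndufa4l2 (0.26 ± 0.10, adjusted p 0.0209).

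Cox6a2 was lower in LII by each of the LFC at single ages, and passed the test at P9. At P2 it was at 0 to 0.451 CPM in LII (median 0.122, n = 10) and 0 to 0.674 in LDeep (0.19, n = 10). At P9 it was at 0.203 to 1.98 CPM in LII (median 0.786, n = 8) and 1.6 to 3.2 in LDeep (2.55, n = 8). The layers barely overlapped at P9. At P23 it was at 1.93 to 11.4 CPM in LII (3.38) and 2.92 to 8.07 in LDeep (5.26), and at P45 at 0.756 to 5.05 in LII (3.84) and 1.83 to 18.5 in LDeep (3.4). These ranges overlapped widely, and at P45 the median was higher in LII, against the sign of the LFC. The LFC was -0.91 ± 0.65 at P2 (adjusted p 0.35), -1.63 ± 0.41 at P9 (0.00178), -0.43 ± 0.39 at P23 (0.477) and -0.71 ± 0.35 at P45 (0.132). The age change did not pass as different between layers (0.70 ± 0.46, adjusted p 0.409). Summed muscle markers were at 17.3 to 28.2 CPM in LII and 33.6 to 57.2 in LDeep at P9. Over all ages 5 of 6 tested were lower in LII, with the largest LFC for Myh1 (-2.27), Myh2 (-2.45) and Myh4 (-2.50). Ckm, Mb, Actc1 and Myl7 were at 0 in most samples. The LFC of Pvalb between layers over all ages was 0.50 (adjusted p 0.359). The part of either cell type in this layer difference was not tested.

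Cox4i2 and Ndufa4l2, the 2 genes higher in LII, are both known from cells of the vessel wall. Cox4i2 was at 2.08 to 7.3 CPM in LII at P23 (median 3.69, n = 6) and 1.5 to 2.82 in LDeep (1.97, n = 6). Of the mural cell markers 9 of 10 were higher in LII and none lower (median LFC 0.73). The sum of these markers was 395 to 629 CPM in LII and 222 to 273 CPM in LDeep at P23. From the younger to the older ages 6 of the 10 rose and 2 fell (median LFC 0.63), while Cox4i2 did not pass the test and Ndufa4l2 fell. Of the endothelial markers 8 of 8 were higher in LII (median 0.98), and of the meningeal fibroblast markers 15 of 16 (median 3.79). Their part in the values of Cox4i2 and Ndufa4l2 was not tested. The call for Cox4i2 was lost with voom and quantile normalization (LFC 0.10, adjusted p 0.61) and in the MEC alone (0.38, adjusted p 0.159), and Ndufa4l2 changed sign with voom (-0.12, adjusted p 0.34).

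The number of members lower in LII rested on a few libraries. Leaving out the 3 libraries nearer to the other layer gave 13 (30.6% of all genes), leaving out the 2 low in short transcripts gave 41 (35%), and leaving out all 5 gave 53 (37.4%), with 26 in complex I, 2 in complex II, 6 in complex III, 8 in complex IV and 11 in complex V. Cox4i2 was then the 1 member higher in LII. Of 78 members 12.8% were lower with all samples, under the share of all genes, whereas 41 of 78 and 53 of 78 lie above the shares of all genes in those fits. The 2 libraries low in short transcripts are both LDeep, and had the lowest shares of counts on the members at P2 (0.586%) and P45 (0.904%). They were left out after their values were seen, which by itself raises the LDeep levels of the members. The counts of 41 and 53 are therefore no test of a layer difference. The median LFC was -0.14 without the 5 libraries. The call for Ndufa4l2 was lost there (0.19, adjusted p 0.0758). Cell type markers differed between the layers too. In LII 7 of 8 astrocyte markers (median LFC 0.68), 6 of 6 red blood cell markers (0.67) and 7 of 10 microglia markers (0.22) were higher, as were 6 of 10 markers of dividing cells (0.33), and of 10 oligodendrocyte markers 5 were lower and 1 higher (-0.57). Of 14 neuron markers 3 were higher and 4 lower (0.09). Their part in the layer differences of the members was not tested.

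**Figure D5:**
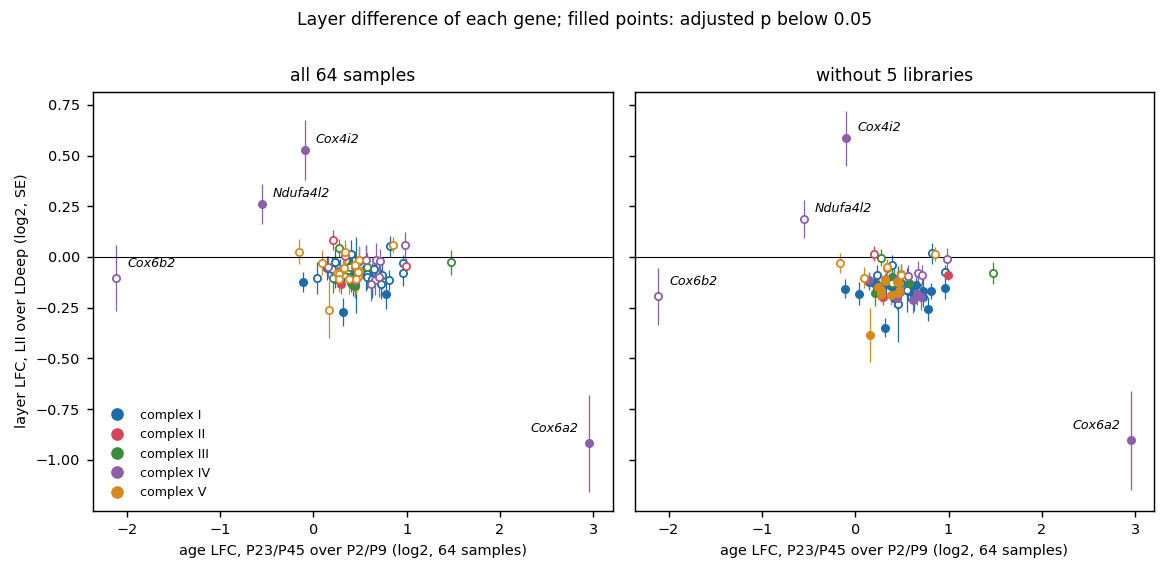
Layer difference of the tested genes, 1 of them not shown (LFC of LII over LDeep, log2, vertical axis; bars are SE) against its age change (LFC of P23/P45 over P2/P9, log2, horizontal axis), with all 64 samples on the left and without the 5 libraries on the right. Filled points passed the test, and colours give the complex. Filled points below 0 are more numerous on the right, and most points are shifted slightly down there.

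At single ages few members differed between layers with all samples. At P2, 1 member, Cox6b2, was lower in LII and none higher, against 8.48% and 10.8% of all genes. At P9, 7 members were lower and 0 higher, against 16.2% and 16.7% of all genes. Those lower were Cox6a2, Cox6b2, Ndufa5 (-0.41 ± 0.14), Ndufs5 (-0.36 ± 0.14), Sdhb (-0.26 ± 0.09), Uqcrc2 (-0.25 ± 0.09) and Ndufs4 (-0.22 ± 0.08). At P23, 1 member was higher, Cox4i2 (1.02 ± 0.34), and none lower, against 14.8% and 11% of all genes. At P45, 1 was higher, Cox6b2, and none lower, against 14.4% and 12% of all genes. Without the 5 libraries the members lower in LII were 7 at P2 (11.4% of all genes), 32 at P9 (21.7%), 1 at P23, Ndufa5 (18.9%), and 29 at P45 (23.4%). Those higher were then Cox4i2 at P2 (14.4% of all genes), Cox4i2 and Sdhc at P23 (16.4%) and Cox6b2 at P45 (17.7%). The limit given above holds here too, as the 2 libraries low in short transcripts are LDeep samples of P2 and P45. With all samples the median LFC of the members was -0.03 for P2, -0.23 for P9, 0.05 for P23 and -0.08 for P45.

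Between MEC and LEC no member passed the test in edgeR or in DESeq2, with 0 higher and 3 lower at an unadjusted p below 0.05. Of all genes 8.87% were higher and 6.53% lower in the MEC. The smallest adjusted p was 0.157, for Uqcr11, and the median LFC of the members was -0.05. Without the 2 libraries low in short transcripts Ndufa11, an accessory subunit of complex I, was lower in the MEC (-0.13 ± 0.05, adjusted p 0.0454). The layer difference in the MEC did not differ from that in the LEC for any member in edgeR or DESeq2 (unadjusted 0 higher and 4 lower), against 0.942% and 0.303% of all genes. Its median over the members was -0.14, while the median of other genes went from -0.12 under 700 bases to 0.11 at 4000 bases and above.

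Length was examined beside the age change too, because the members are short. Among the 40 tested members under 700 bases the median LFC was 0.48, and -0.12 among 517 other genes of that length, of which 34% rose. For 12 members of 700 to 1000 bases and 668 other genes the medians were 0.45 and 0.12. For 23 members of 1000 to 2000 bases and 4284 other genes they were 0.37 and 0.04, and the 3 longest members, of 2000 to 4000 bases, had a median of 0.96. The members' median lay above that of other genes in each of these classes.

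Other genes of the pathway moved in the same direction as the subunits in part. Cycs, which encodes the cytochrome c that carries electrons to complex IV, rose (0.56 ± 0.07). Of 38 tested assembly factors, which help build the complexes, 28 rose and 5 fell with age (median LFC 0.33), where 41% of all genes rose and 40.6% fell. Cox17, a copper chaperone for complex IV, rose by 1.61 ± 0.06 and Atpaf1, an assembly factor of ATP synthase, by 1.28 ± 0.05, while Cox19 and Cox20, which also serve complex IV, fell (-0.63 ± 0.04 and -0.63 ± 0.07). Of 16 genes of the citric acid cycle and pyruvate dehydrogenase 13 rose and 1 fell (median 0.46). Sucla2 (0.94 ± 0.05) and Suclg2 (0.87 ± 0.06), both for succinyl-CoA ligase, rose most, and citrate synthase, Cs, fell (-0.17 ± 0.03).

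Regulators of mitochondrial biogenesis and upkeep of mitochondrial DNA had 8 of 17 members higher and 8 lower (median 0.01), shares near the 41% and 40.6% of all genes. The coactivator Ppargc1b (1.30 ± 0.11) and the nuclear receptor Esrrb (1.30 ± 0.26) rose, and Gabpb1, the partner subunit of the factor that binds GABP motifs (-1.15 ± 0.05), and Polg2, a subunit of the mitochondrial DNA polymerase (-1.05 ± 0.09), fell. Between layers 12 of 38 assembly factors were lower in LII and none higher, and of the citric acid cycle genes 5 of 16 were lower and 1 higher, shares near the 30.5% of all genes that were lower. The 1 tested gene among ATP synthase regulators did not pass between ages (0.18).

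The cell types of the tissue changed over the same ages. Neuron markers summed to 1231 to 2270 CPM at P2 and 5883 to 8160 CPM at P45, and 12 of 14 rose (median LFC 1.46) while Slc17a6 and Sst fell. Oligodendrocyte markers went from 118 to 186 CPM at P2 to 880 to 12825 CPM at P45, with 10 of 10 higher. Astrocyte markers rose in 7 of 8 cases and microglia markers in 9 of 10, and 10 of 10 markers of dividing cells fell. The part of these changes in the values of the oxidative phosphorylation genes was not tested.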

How the data were processed

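Total RNA of 64 samples was sequenced after ribosomal RNA depletion. The authors trimmed reads with Trimmomatic 0.33, aligned them to Rn6 with STAR 2.4.0 and counted read pairs on RefSeq exons, strand-specifically, with featureCounts (Subread 1.4.6-p1). Read pairs mapping to several places were not counted. The deposited values are these counts, as whole numbers without normalization, 1 file per sample. Groups were taken from the labels.

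Everything else was computed here with R 4.3.3. Genes passing the filterByExpr filter were tested with the quasi-likelihood test of edgeR 4.0.16 (TMM library sizes, 1 mean for each of 16 groups, no block, BH adjustment over 12521 genes, threshold 0.05). The SE of an LFC is its size divided by the root of the F statistic. Log2 CPM used a prior count of 2. Levels were compared between genes only per kb of exon. Counts of 3894334 to 11439143 per sample made 1 count worth 0.0874 to 0.257 CPM. Replicates were compared pairwise for duplicated libraries. None of 100 pairs was identical, with chi-square per degree of freedom of at least 3.08.

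Alternatives were DESeq2 1.42.0, voom with quantile normalization in limma 3.58.1, RLE factors, total counts as library sizes, no filter, 1 region alone, a replicate block, sums over replicate numbers, and each replicate number left out. Leaving out 3, 2 or 5 libraries was chosen after seeing the data. For its miRNA samples the study numbers LII and LDeep of an animal alike, and whether the labels' numbers do so was not stated. Deviations from group means correlated at a mean r of 0.134 over 96 pairs with the same number (55 over 0.1) and -0.043 over 300 other pairs of the same age (59 over 0.1). Scripts were tested on simulated data.

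Members named are isoform families, core subunits, the highest and lowest LFC with age of each complex, up to 3 per direction in every other contrast, and members not tested. For pathway lists, up to 2 genes per direction with the largest change with age are named. Other genes named with a count of 10 or fewer, or as marker exceptions, were chosen after their values were seen. The members and lists were chosen with earlier results of these data known. Promoters are from RefSeq. No genome sequence was used. Values of 1 member are not reported here, though the counts over members include it.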

Additional observations from a re-analysis of the deposited data

Results flagged for a closer look

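Groups of 4 or 5 samples were examined for some of the named genes and for the mean over well-counted members. Of 168 such groups, 10 held a sample far from the others by Dixon's criterion, where chance gives about 1 in 20. The value given for each is the gap to the nearest sample as a share of the range of the group. In 3 of them LEC LDeep P45 replicate 4, a library low in short transcripts, was the lowest, for Sdha (0.909, at 8.49 against at least 9.01 log2 CPM), Ndufs1 (0.877) and Atp5g2 (0.889). Sdha and Ndufs1 are not short, with 2277 and 2476 bases of exon, and why they were low there was not tested. Sdha was also lowest in MEC LDeep P45 replicate 2 (0.848), at 9.00 against 9.10 log2 CPM.

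Cox6a2 was lowest in LEC LII P45 replicate 4 (0.874, at 0.69 against at least 2.07 log2 CPM), and Cox6b2 highest in MEC LDeep P45 replicate 1 (0.889, at 1.33 against at most 0.51). Atp5g1 was lowest in LEC LII P9 replicate 4 (0.849), Ndufa4 in MEC LII P45 replicate 1 (0.859) and Uqcr11 in MEC LII P2 replicate 1 (0.749). The last of these libraries is 1 of the 3 nearer to a group of the other layer, and so is MEC LII P2 replicate 3, which had the highest mean over the members in its group (0.713, at 6.84 against at most 6.62 log2 CPM).

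The age change of Cox6b2 differed between LII and LDeep by 1.79 in LFC (SE 0.31, adjusted p 4.72e-05 in edgeR), as its levels by layer show.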

How the results depend on the processing

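At P23/P45, 66 to 70 members were higher and 3 to 4 lower when each replicate number was left out, and 2 were lower in MEC samples alone. From P2 to P9, 70 to 74 rose and 0 fell. From P9 to P23, 23 to 50 rose and 2 to 4 fell, with 19 higher in MEC samples alone, and 4 lower with voom, 5 with total counts and 5 without the 2 libraries low in short transcripts or without all 5. Higher at P45 than at P23 was 1 member without those 2 libraries and 1 without all 5, and lower in the MEC 1 without those 2. Members higher in LII were 1 to 2 with a replicate number left out, 6 with total counts, 3 with voom, 0 in the MEC, 1 in the LEC and 1 without all 5. Members lower in LII were 2 to 19 with a replicate number left out (3 without P2 replicate 2, 17 without P2 replicate 4, 6 without P9 replicate 2, 2 without P23 replicate 2, 19 without P45 replicate 4), 2 with total counts, 5 with no filter, 1 in the LEC, 41 without 2 libraries and 53 without 5. The age change differed between layers for 3 members without the 3 libraries nearer to the other layer. Ndufa4l2 reversed between layers with voom (-0.12). The cause of these changes was not tested. Of named values, 737 of 752 kept direction and call with a replicate number left out.

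With a replicate block, 2 members were higher and 11 lower in LII (shares of all genes in that fit not given), and none of the 6 named results tested there changed its call. Samples with the same number correlated more in their deviations (mean r 0.134 over 96 pairs, lowest -0.259) than others of the same age (mean r -0.043 over 300 pairs), a hint from the data that the numbers pair samples. Of the pairs with the same number 55 of 96 were over 0.1, and of the others 59 of 300. The fit without the block was kept, but these values do not show that samples are independent. Its p-values treat the 64 samples as independent, while they carry 16 combinations of age and replicate number. If each combination is an animal, the p-values for age may be too small. In the fit on sums over these combinations, 40 of 41 named results kept direction and call. Low counts limit Cox6a2 at P2 (at most 6) and Cox6b2 in LDeep at P45 (median 8.5).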

Other observations

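Cox8b, the heart and muscle isoform of subunit 8, was too low to be tested but held counts at the older ages. It was at 0.162 to 0.9 CPM at P23 (median 0.559, with no sample at 0) and at 0 to 1.23 CPM at P45 (median 0.521), where 3 of 16 samples were at 0, after 0 counts in all 20 samples at P2. The 250 bases before its start held 2 E-boxes and 1 SP1 motif.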
